A study of Mus musculus with 14 samples.

Results

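CPEB4 was precipitated with its bound RNA from wildtype neurospheres, and the RNA was compared with that brought down by control immunoglobulin (IgG) from the same kind of culture. The 4 libraries are the wildtype CPEB4 precipitates 1 and 2 and the wildtype IgG precipitates 1 and 2, out of 14 samples in the series. They were taken from the RNA immunoprecipitation (RIP) gene count table by genotype, fraction and replicate number in the labels. Genes that held 1% or more of the counts in both IgG libraries were set aside before scaling, as described next to their values.

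CPEB4 belongs to a family of RNA-binding proteins that recognise the cytoplasmic polyadenylation element, a short uridine-rich stretch near the end of some mRNAs. Family members lengthen or shorten the poly(A) tail of their targets and so raise or lower translation, in dividing germ cells, in neurons and in somatic cell division. In RIP an antibody pulls the protein and its RNA out of a cell extract, and IgG with no specific target measures what sticks to the beads and antibody without the protein.

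Neurospheres are floating clusters grown from neural stem cells, here isolated from adult mouse subventricular zone. Both groups compared were wildtype, cultured and without treatment per the labels, and the same table holds 2 wildtype input libraries and 2 CPEB4 precipitates of neurospheres labelled CPEB4-/-. The labels do not say which part of Cpeb4 is deleted or whether replicates came from separate cultures or animals. The p-values therefore measure the spread between these libraries, which may be technical. Of 16 neural stem cell markers, 15 were matched in the table, and all of these had counts in each input library, with summed levels of 8894 and 10550 counts per 1000000 (CPM). Astrocyte markers summed to 1623 and 1413 CPM in the inputs, of which Apoe alone held 1003 and 761.5 CPM. Aldh1l1 held 235 and 211 CPM, and Gfap 1.49 and 0.473 CPM. Neuroblast and neuron markers summed to 485 and 438 CPM, mostly from Map2 (230 and 329 CPM) and Gad1 (209 and 63.5 CPM). Dcx held 0.322 and 0.142 CPM, so these sums rest on a few members. Oligodendrocyte markers summed to 308 and 255 CPM. Microglia and macrophage markers summed to 48.4 and 45.1 CPM, with 3 and 4 of 8 at 0. Endothelial markers summed to 6.44 and 4.26 CPM, with 0 and 1 of 6 at 0. In such bulk libraries fewer cells of a type and less RNA per cell cannot be told apart.

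The libraries differed in makeup before any gene was compared. Total counts were 10054346 and 11268997 in IgG, 13199456 and 13312121 in the CPEB4 precipitates, and 11688494 to 17466296 in the other libraries. The genes set aside took 75.4% and 70.8% of the IgG counts, 48.4% and 55.9% of the CPEB4 counts, and 0.232% and 0.334% of the input counts. What was left for comparison was 2477448 and 3291382 counts in IgG and 6814303 and 5876927 in the CPEB4 precipitates, so low genes were measured less precisely in IgG. The precipitates labelled CPEB4-/- did not resemble each other. Replicate 1 had 35.9% of its counts in the genes set aside, below both wildtype CPEB4 precipitates, and replicate 2 had 75.2%, close to IgG. Correlation of log2 CPM across genes was 0.94 between the IgG libraries, 0.96 between the wildtype CPEB4 precipitates and 0.82 between those labelled CPEB4-/-.

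**Figure D1:**
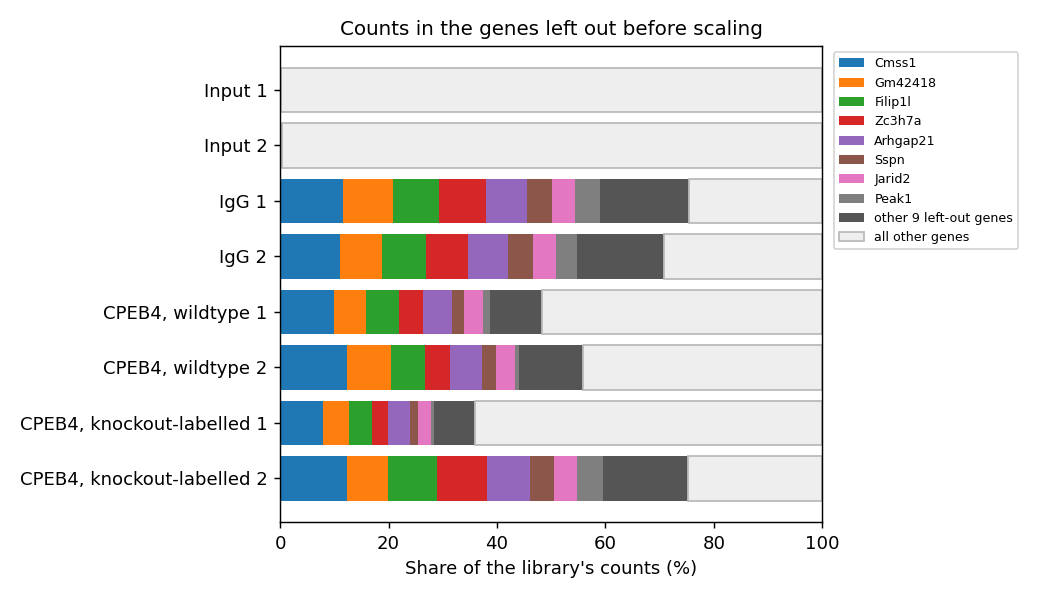
Share of each RIP library's counts (percent, horizontal axis) in the genes set aside before scaling, with 1 stacked bar for each library and 1 colour for each of the 8 genes with the largest share in IgG. Dark grey is the other 9 genes set aside and light grey all remaining genes. The coloured and dark grey parts together fill 75.4% and 70.8% of the IgG bars, 48.4% and 55.9% of the wildtype CPEB4 bars, and are barely visible in the inputs.

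The 17 genes set aside were Cmss1, Gm42418, Filip1l, Zc3h7a, Arhgap21, Sspn, Jarid2, Peak1, Lars2, Kpna1, Rsph3b, Camk1d, Il31ra, Dnah7b, Gm23935, Rsph3a and Gm24187. Cmss1 had the highest share, 11.5% and 11.0% of IgG counts against 9.92% and 12.4% of CPEB4 counts. In the inputs it held 0.0106% and 0.0114%. The Cmss1 and Filip1l spans overlap by 219528 bases on chromosome 16, so reads there may count for either gene. Their shares did not move in step between precipitates. Peak1, a cytoskeleton-associated kinase-like protein, held 4.56% and 3.85% of IgG counts and 1.31% and 0.766% of CPEB4 counts, a ratio of 0.247. For Kpna1, an importin that carries proteins into the nucleus, the ratio was 0.325, and for Lars2, the mitochondrial leucyl-tRNA synthetase, it was 0.978. The member just inside the threshold was Gm24187, at 1.23% and 1.03% of IgG counts. Spata5, at 1.11% and 0.971%, was just outside and was kept.

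Among 14405 genes tested, 98 (0.68%) were higher and 236 (1.64%) lower, or 2.32% in all, in the wildtype CPEB4 precipitate than in IgG at an adjusted p under 0.05 (edgeR quasi-likelihood test, Benjamini-Hochberg adjustment). At an unadjusted p under 0.05 the numbers were 1538 and 1844, and the smallest adjusted p was 0.0285 for a higher and 0.012 for a lower gene. Both CPEB4 libraries lay above both IgG libraries for 28.1% of the genes and below them for 27.9%. The calls depended on each of the 4 libraries. Without IgG 1 there were 183 higher and 174 lower genes, without IgG 2 222 and 853, without CPEB4 precipitate 1 40 and 26, and without CPEB4 precipitate 2 6 and 7. Of the 334 called genes, 11 passed in all 4 of these fits, 5 higher and 6 lower. With library totals in place of trimmed mean (TMM) factors all log2 fold changes moved up by 0.18, and the split changed to 139 higher and 106 lower.

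Cpeb4 itself (ENSMUSG00000020300, chromosome 11, 31870104 to 31935635 in mm10) did not pass the test. It stood at 109 and 232 CPM in IgG and at 426 and 167 CPM in the CPEB4 precipitates. The second CPEB4 library lay between the IgG libraries, so the groups overlapped, with a log2 fold change of 0.79 (SE 0.47, edgeR adjusted p = 0.33). The inputs held 32.5 and 29.7 CPM, and the precipitates labelled CPEB4-/- 446 and 490 CPM, at or above the wildtype level. As the deleted part is not known, these gene-level counts do not check that label.

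None of the 39 tested genes of the CPEB family and of poly(A) tail regulation passed in either direction. Their median log2 fold change was 0.25, beside 0.01 for all genes tested, and was 0.00 without CPEB4 precipitate 1. Cpeb3, a paralog of Cpeb4, was at 40.2 and 52.8 CPM in IgG and 105 and 60.2 CPM in the CPEB4 precipitates (log2 fold change 0.83, adjusted p = 0.17). Cpeb2 had 53.0 and 63.2 CPM against 125 and 55.8 CPM (0.64, adjusted p = 0.32), with overlapping groups. Cpeb1, the founding member of the family, had 15.1 and 15.4 CPM against 20.6 and 18.5 CPM (0.36, adjusted p = 0.50). Parn, a poly(A)-specific ribonuclease, had the smallest p of the list, with 29.3 and 36.5 CPM in IgG and 62.7 and 55.8 CPM in the precipitates (0.84, adjusted p = 0.11). Log2 fold changes in the list ran from -0.36 to 1.28, with the deadenylase subunits Cnot8 and Cnot6 at the low end (-0.36 and -0.34). Over all genes tested 0.68% were higher and 1.64% lower, the shares to set beside the counts of this and later lists. An absence of calls in lists of this size says little about their members.

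Fosb, a Fos-family transcription factor induced early after stimulation, had the largest rise among the named genes. It was at 1.37 and 2.15 CPM in IgG and at 18.2 and 25.7 CPM in the CPEB4 precipitates. Both precipitates stood above both IgG libraries, with a log2 fold change of 3.57 (SE 0.46, adjusted p = 0.0285). The precipitates labelled CPEB4-/- held 7.85 and 3.43 CPM, between the IgG and wildtype levels, and the inputs differed from each other, at 16.5 and 0.567 CPM. In raw counts the IgG values are 3 and 7, so the size of the change is imprecise. Fosb passed in each fit with 1 library left out (log2 fold change 3.31 to 3.93) and also after the trend over gene span, described further on, was removed (3.94, adjusted p = 0.00761).

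Bnc2, a zinc finger protein, followed with 0.457 and 1.54 CPM in IgG and 9.86 and 6.99 CPM in the CPEB4 precipitates (log2 fold change 2.93). Lrmda was at 19.7 and 4.61 CPM against 81.6 and 83.9 CPM (2.84). Eda (chromosome X, 99975606 to 100400760), which encodes the signalling ligand ectodysplasin, was at 51.7 and 27.3 CPM against 307 and 169 CPM (2.60, SE 0.41). All 3 genes were separated between the groups, as the selection required. The log2 fold change of Eda stayed between 2.12 and 3.15 with any 1 library left out. Bnc2 lost its call without either CPEB4 precipitate (highest adjusted p 0.143), and Lrmda without CPEB4 precipitate 2 (0.0506). The precipitates labelled CPEB4-/- held 114 and 67.0 CPM of Eda, above IgG and below the wildtype precipitates, and the inputs 15.3 and 10.1 CPM.

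Nkain3, Lrrtm4 and Igsf11 were also among the 15 largest rises. Nkain3, whose product binds the sodium pump, had 270 and 186 CPM in IgG and 1167 and 778 CPM in the CPEB4 precipitates (log2 fold change 2.09). Lrrtm4, a postsynaptic adhesion protein, had 11.4 and 15.4 CPM against 74.1 and 50.6 CPM (2.20), and Igsf11, an immunoglobulin-domain adhesion protein, 21.0 and 18.1 CPM against 81.8 and 70.2 CPM (1.96). As the selection required, the wildtype groups did not overlap in these genes. Lrrtm4 and Igsf11 passed in each fit with 1 library left out, while Nkain3 passed only without IgG 1, with a highest adjusted p of 0.092 in the other fits.

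The orphan nuclear receptor Esrrg had 12.8 and 14.7 CPM in IgG and 59.6 and 57.7 CPM in the CPEB4 precipitates (2.08, SE 0.30, adjusted p = 0.0325). Its replicates lay close together in both groups, and it too passed in each such fit. Sgcd, a sarcoglycan of the dystrophin complex, had 5.49 and 7.98 CPM against 30.5 and 24.4 CPM (2.00). The precipitates labelled CPEB4-/- held 71.7 and 19.1 CPM of Esrrg and 46.2 and 10.3 CPM of Sgcd. Unlike for Fosb and Eda, replicate 1 of these stood above both wildtype precipitates in both genes. Other genes among the largest rises were Alpk1, Hivep3, Nhs, Atxn7l1 and Baiap2l1, with log2 fold changes of 2.01 to 2.31. Sgcd, Baiap2l1 and Alpk1 lost their calls without either CPEB4 precipitate, Nhs without CPEB4 precipitate 1, and Hivep3 and Atxn7l1 without CPEB4 precipitate 2. Alpk1 also lost its call without IgG 2. Fosb spans 7.42 kb of the genome from start to end, and each of the others named here spans between 93.6 kb (Baiap2l1) and 1037 kb (Lrmda).

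The same could be seen among the called genes with the highest CPM in the CPEB4 precipitates. Rora, a nuclear receptor known from cerebellar development, was at 567 and 558 CPM in IgG and 2082 and 1969 CPM in the precipitates (log2 fold change 1.85, SE 0.40). Wwox, a tumour suppressor gene that covers a common fragile site, was at 199 and 242 CPM against 636 and 696 CPM (1.60). Hmga2, a chromatin protein known from the self-renewal of young neural stem cells, was at 115 and 90.3 CPM against 366 and 287 CPM (1.67). In all 3 genes the precipitates were apart from IgG. Kcnq5 (a potassium channel), Lhfp, Ccbe1, Nebl, Grik2 (a kainate receptor) and Csgalnact1 (an enzyme of chondroitin sulfate synthesis) completed this group with log2 fold changes of up to 1.93. They span 115 kb (Hmga2) to 913 kb (Wwox). None of this group except Nkain3 and Ccbe1, both called without IgG 1, kept its call when any 1 library was left out.

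**Figure D2:**
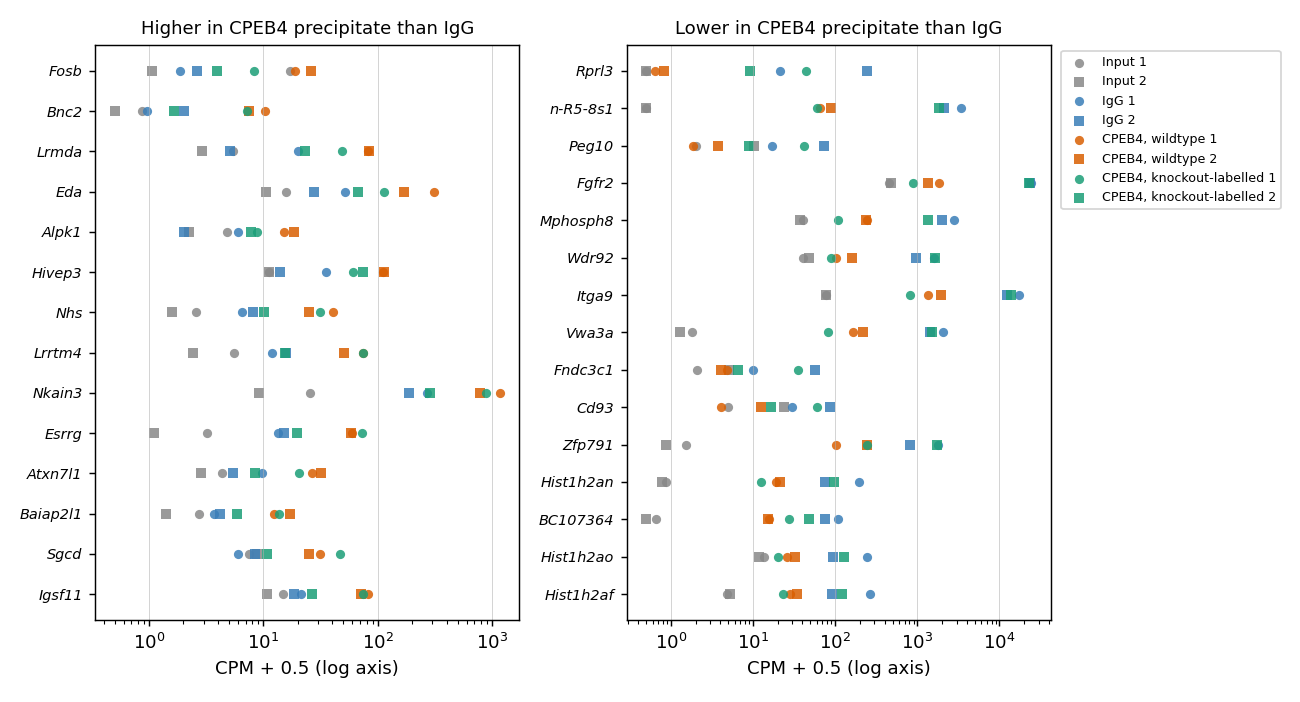
CPM + 0.5 (log axis) of the named genes with the largest rise (left) and the largest fall (right) in all 8 RIP libraries, with circles for replicate 1 and squares for replicate 2. The genes were selected to have no overlap between the wildtype groups. The wildtype CPEB4 points (orange) therefore lie right of the IgG points (blue) in the left panel and left of them in the right panel. The 2 libraries labelled CPEB4-/- (green) are often far apart.

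On the lower side, the nuclear ribosomal RNA gene n-R5-8s1 had the smallest p of all genes, with 3434 and 2099 CPM in IgG and 64.4 and 89.6 CPM in the CPEB4 precipitates. The groups were far apart (log2 fold change -5.17, SE 0.51, adjusted p = 0.012), and it was the single gene to pass a test against a change of 1.5-fold. Copies of ribosomal RNA are repeated in the genome, so how its reads were assigned is uncertain. The precipitates labelled CPEB4-/- held 59.5 and 1841 CPM of n-R5-8s1. Rprl3 (chromosome 8, 3803125 to 3803359), a copy related to the RNA component of ribonuclease P, had 45 and 796 raw counts in IgG and 1 and 2 in the CPEB4 precipitates. The IgG libraries differed from each other, and the pooled ratio of IgG to CPEB4 was 693 (95% interval 236 to 3360, counting error only). The precipitates labelled CPEB4-/- held 478 and 23 raw counts of Rprl3. Rprl2 had 7 and 70 raw counts against 1 and 0 (ratio 190, interval 33.1 to 7610), and Rpph1, the ribonuclease P RNA gene itself, 109 and 111 CPM against 29.5 and 39.4 CPM (-1.68). Rprl2 lost its call without IgG 2 and without CPEB4 precipitate 2.

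Fgfr2 (chromosome 7, 130162451 to 130266808), a receptor for fibroblast growth factors, had the highest level among the named genes that fell. It stood at 24390 and 23820 CPM in IgG and at 1850 and 1354 CPM in the CPEB4 precipitates, and the inputs held 450.5 and 474 CPM. As a share of all counts it took 0.531% and 0.689% of IgG and 0.102% and 0.0626% of the CPEB4 precipitates. The log2 fold change was -3.91 (SE 0.59, adjusted p = 0.0392), and the call was lost without either CPEB4 precipitate (highest adjusted p 0.066). The precipitates labelled CPEB4-/- held 887 CPM in replicate 1, below the wildtype precipitates, and 23000 CPM in replicate 2, in the range of IgG.

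The same arrangement of libraries held for Itga9, Vwa3a and Wdr92, and in part for Mphosph8 and Zfp791. In Mphosph8, replicate 2 labelled CPEB4-/- stood below both IgG libraries, at 1348 CPM. In Zfp791, replicate 1 labelled CPEB4-/- stood between the wildtype precipitates, at 245 CPM against 103 and 247 CPM. Itga9, an integrin subunit, was at 17240 and 12470 CPM in IgG, 1331 and 1929 CPM in the wildtype precipitates, and 825 and 13850 CPM in those labelled CPEB4-/- (-3.19 for the wildtype comparison). Mphosph8, a subunit of the HUSH silencing complex, had 2765 and 2000 CPM in IgG against 247 and 235 CPM (-3.31). Vwa3a, barely detected in the inputs at 1.33 and 0.804 CPM, had 2034 and 1413 CPM against 166 and 215 CPM (-3.18). Wdr92 and Zfp791 fell by 3.28 and 2.90 on the log2 scale. These genes resembled the genes set aside in being far more abundant in IgG than in input. Fgfr2, Itga9, Mphosph8, Vwa3a and Wdr92 also passed once the trend over gene span was removed. With 1 library left out, Itga9 and Zfp791 lost their calls without either CPEB4 precipitate (highest adjusted p 0.133 and 0.104). Mphosph8, Vwa3a and Wdr92 lost theirs without CPEB4 precipitate 2 (adjusted p = 0.0506).

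Peg10, an imprinted gene derived from a retrotransposon, showed another arrangement. It had 16.5 and 72.5 CPM in IgG and 1.37 and 3.25 CPM in the CPEB4 precipitates (log2 fold change -4.30, SE 0.67). In the libraries labelled CPEB4-/- it had 40.8 and 8.38 CPM, and in the inputs 1.53 and 9.84 CPM. Cd93, a surface receptor known from endothelial and myeloid cells, had 29.3 and 85.7 CPM in IgG against 3.56 and 11.9 CPM (-2.93), 60.5 and 16.0 CPM in the libraries labelled CPEB4-/- and 4.51 and 23.2 CPM in the inputs. For Fndc3c1 the IgG values were 9.60 and 56.2 CPM and the wildtype precipitate values 4.38 and 3.58 CPM (-3.07). All 3 were higher in IgG 2 than in IgG 1, and they were higher in replicate 1 than in replicate 2 of the libraries labelled CPEB4-/-. Without IgG 2 the log2 fold changes of Peg10 and Fndc3c1 were -2.90 and -1.30, and Fndc3c1 lost its call. It also lost it without either CPEB4 precipitate, and Cd93 lost its call without CPEB4 precipitate 1.

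The genes that rose and the genes that fell differed in how much of the genome they span. Where a RefSeq span was found, the 87 higher genes had a median span of 258 kb and 83.9% of them exceeded 100 kb. The 194 lower genes had a median of 1.09 kb, and 85.1% were under 10 kb. Over all tested genes the median was 24.2 kb, with 16.0% over 100 kb and 27.2% under 10 kb. Of all 236 lower genes, 124 were predicted genes or pseudogenes, and 105 (44.5%) were protein-coding. Of the 98 higher genes 78 (79.6%) were protein-coding, and of all tested genes 81.4%. The median log2 fold change climbed with span, from -0.98 under 2 kb through -0.49, -0.10, 0.26 and 0.61 to 0.91 over 300 kb. Among protein-coding genes alone it ran from -1.18 under 2 kb to 0.91 over 300 kb. Across 13516 genes, which are not independent replicates and share the same 4 libraries, Spearman's rho between span and log2 fold change was 0.66, and it was 0.72 over the 9125 genes with a mean of 50 or more counts.

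**Figure D3:**
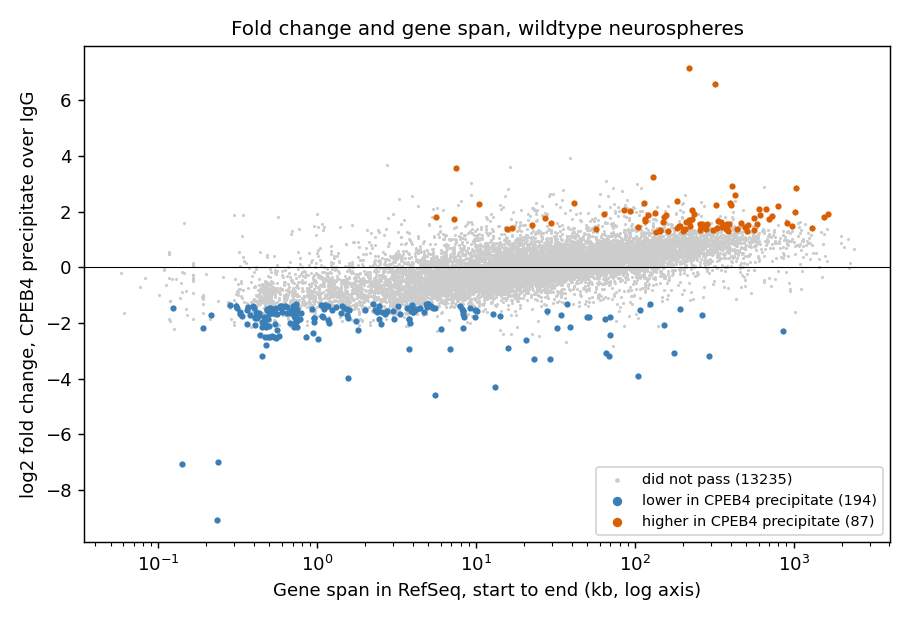
Log2 fold change of the wildtype CPEB4 precipitate over IgG (vertical axis) against gene span in kb (log axis), with 1 point for each tested gene with a RefSeq span. The 87 higher genes (orange) sit mostly to the right of 100 kb and the 194 lower genes (blue) mostly to the left of 10 kb.

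This order held in each wildtype CPEB4 precipitate. Over 300 kb the median gene stood 1.03 and 0.80 above the IgG mean on the log2 (CPM + 0.5) scale, and under 2 kb it stood at -1.16 and -0.71. The libraries labelled CPEB4-/- were split again. Replicate 1 had a steeper order than the wildtype precipitates, with 1.49 over 300 kb and -1.62 under 2 kb, and replicate 2 was nearly flat, with -0.13 and 0.01. The inputs ran the other way over long genes, at -2.08 and -2.22 over 300 kb. Input CPM per kb of span, a level set against gene size, had a median of 0.0298 for higher genes, 17.7 for lower genes and 0.943 for all tested genes. Within span classes the difference between tertiles of input level varied. Among genes of 2 to 10 kb the median log2 fold change was -0.14 in the lowest tertile and -0.72 in the highest. Under 2 kb the medians were -0.86 and -1.09, and over 300 kb 0.93 and 0.85.

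**Figure D4:**
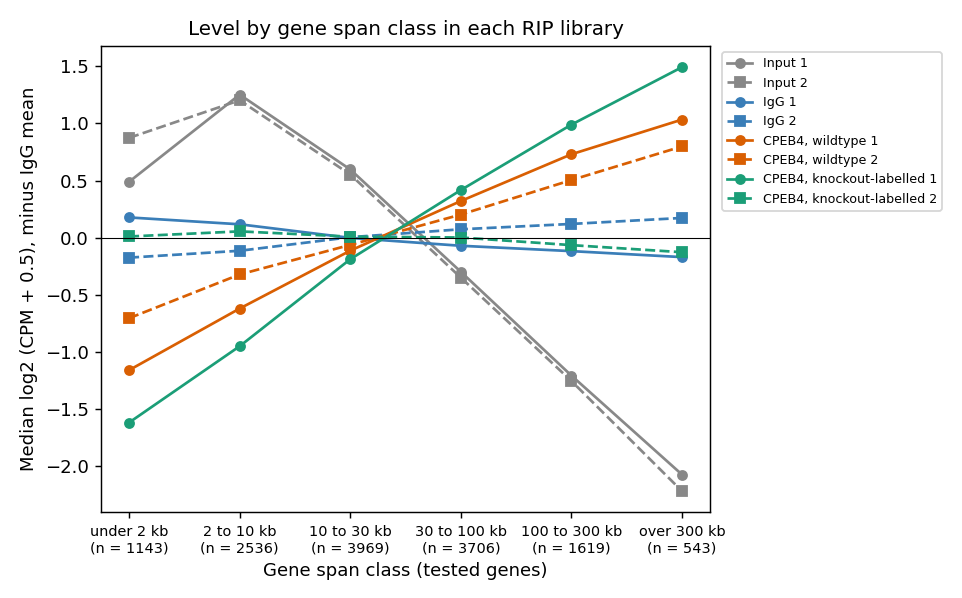
Median log2 (CPM + 0.5) minus the mean of the IgG libraries (vertical axis) by class of gene span (horizontal axis, with the number of tested genes), with 1 line for each RIP library. The lines of both wildtype CPEB4 precipitates climb from left to right, replicate 1 labelled CPEB4-/- climbs more steeply, replicate 2 stays near 0, and the inputs fall from the 2 to 10 kb class on.

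After each library's trend over gene span was removed, an alternative added after the values were seen, 8 genes were higher and 17 lower, and 2 and 17 of them were also called in the main comparison. Fosb and the predicted gene Gm9285 are the 2 higher ones. Among the named genes, the lower ones were Fgfr2, Vwa3a, Itga9, BC107364, Mphosph8 and Wdr92. BC107364 had 109 and 74.3 CPM in IgG and 15.2 and 14.8 CPM in the CPEB4 precipitates (log2 fold change -2.60 before and -2.54 after removal). The part of gene span, intron content or unspliced RNA in these differences was not tested.

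Replication-dependent histone genes fell most as a group. These genes encode the histones made in S phase, and their mRNAs end in a stem-loop in place of a poly(A) tail. Of 55 tested, 37 (67.3%) were lower and none higher, with a median log2 fold change of -1.76. Hist1h2an (chromosome 13, 21786774 to 21787248) had 193 and 74.6 CPM in IgG and 18.4 and 20.7 CPM in the CPEB4 precipitates (-2.77). Hist1h2ap had 138 and 56.5 CPM against 15.6 and 18.4 CPM (-2.50). In both genes the IgG libraries differed from each other by more than the CPEB4 libraries did. The inputs held 0.362 and 0.284 CPM of Hist1h2an.

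By histone type, 12 of 17 H2A genes, 13 of 14 H2B genes, 4 of 6 H3 genes, 5 of 13 H4 genes and 3 of 5 H1 genes were lower. Histone genes are near-identical copies, so the share of reads given to each is uncertain and their calls are not independent. The number of lower histone genes was 13 without IgG 1, 54 without IgG 2, 2 without CPEB4 precipitate 1 and 0 without CPEB4 precipitate 2, with medians between -2.22 and -1.15. After removal of the span trend none passed and the median was -0.67.

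Cytosolic ribosomal protein genes, short and highly expressed, came next, with 14 of 82 (17.1%) lower, none higher and a median of -1.13. Rpl11 had 159 and 135 CPM in IgG and 47.1 and 52.4 CPM in the CPEB4 precipitates (-1.56). Rpl39 had 87.8 and 68.8 CPM against 21.9 and 28.9 CPM (-1.62). Both were separated between the groups, as were 80 of the 82 tested members, beside 8061 of all 14405 genes tested. Rps27 was the only tested member with a positive value, at 0.17. Nuclear genes of oxidative phosphorylation had 5 of 49 lower and a median of -1.003, with Atp5e, a subunit of ATP synthase, at 23.3 and 21.8 CPM against 5.75 and 6.67 CPM (-1.86). None of the ribosomal protein or oxidative phosphorylation genes passed without CPEB4 precipitate 1, without CPEB4 precipitate 2 or after removal of the span trend.

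Small structured RNAs had 3 of 23 tested members lower, all 3 from the ribonuclease P group described above, and a median of -1.11. Rn7s1, one of the signal recognition particle RNA genes, stood at 20770 and 8202 CPM in IgG and 2225 and 4653 CPM in the precipitates (-2.08, adjusted p = 0.094). Rnu5g, a spliceosomal RNA gene, had 256 and 187 CPM against 239 and 383 CPM (0.49, adjusted p = 0.42). Most of these genes had near 0 CPM in the inputs. The labels name poly(A) RNA for the whole series, precipitates included, and the cause of the low input values was not tested.

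Mitochondrially encoded genes varied most between replicates. Their 13 members were listed at 0 in both inputs, and none passed. mt-Co2, a cytochrome oxidase subunit, had 2534 and 322 CPM in IgG and 205 and 6206 CPM in the CPEB4 precipitates. CPEB4 precipitate 2 was the highest and CPEB4 precipitate 1 the lowest of these 4. The median of the list was 0.40 in the main comparison, 1.37 without IgG 1, -0.25 without IgG 2, 1.26 without CPEB4 precipitate 1 and -2.21 without CPEB4 precipitate 2.

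**Figure D5:**
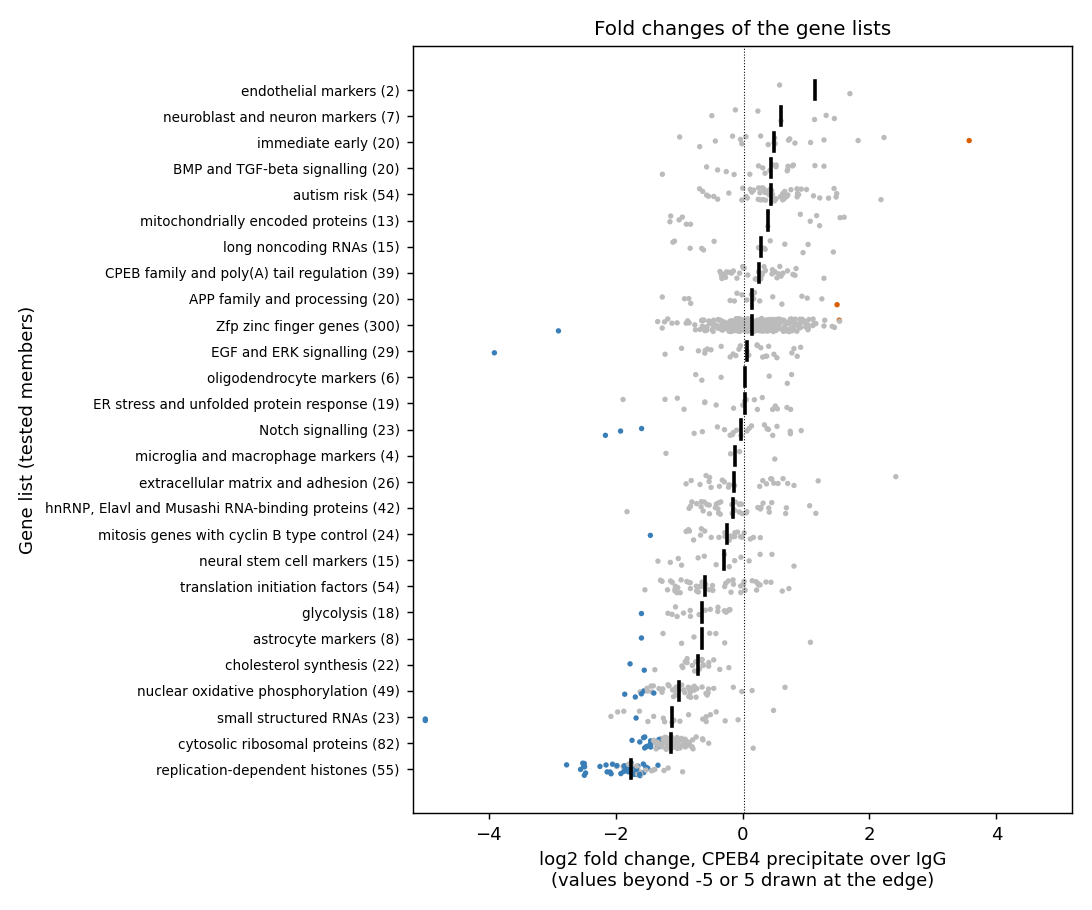
Log2 fold changes of the tested members of the 27 gene lists (1 point for each gene, orange for higher, blue for lower, grey for not passed), with the list median as a black bar and the median of all genes tested as a dotted line. Histones, at a median of -1.76, and ribosomal proteins, at -1.13, lie farthest to the left among the larger lists.

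Calls among genes of signalling pathways were few in number. Of 23 Notch pathway genes 3 (13%) were lower, beside 1.64% of all genes tested, and none passed after removal of the span trend. The groups did not overlap in 10 of the 23, beside 8061 of all 14405 genes tested. Hes6, a transcription factor that promotes neuronal differentiation, had 28.8 and 24.0 CPM in IgG and 7.53 and 9.92 CPM in the CPEB4 precipitates (-1.59). Hes5, a repressor that Notch switches on, had 14.6 and 31.3 CPM against 6.71 and 5.53 CPM (-1.92), and the ligand gene Dll3 had 6.86 and 11.7 CPM against 1.92 and 2.28 CPM (-2.16). The groups did not overlap in any of the 3, but no Notch gene passed without either CPEB4 precipitate or with library totals as the scale. Fgfr2 was the only member to pass (3.45%) among 29 EGF and ERK genes. Egfr, the receptor for EGF, had 1032 and 874 CPM in IgG and 1823 and 1519 CPM in the CPEB4 precipitates (0.81, adjusted p = 0.24).

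None of 20 tested BMP and TGF-beta genes passed. Bmpr1b, a type I BMP receptor, had 201 and 213 CPM against 615 and 393 CPM (1.28, adjusted p = 0.070), and Id3, a target of BMP signals, 24.7 and 21.5 CPM against 11.0 and 8.13 CPM (-1.26, adjusted p = 0.063). Both were separated between the groups without reaching the threshold, and 28.1% of all genes tested were so separated upward and 27.9% downward. In the APP family and its processing, Apba1, an adaptor that binds APP, was the 1 gene of 20 (5%) to pass. It was at 12.8 and 16.0 CPM against 40.1 and 41.3 CPM (1.49, SE 0.30, edgeR adjusted p = 0.0431). Its span is 191 kb, and it lost its call without IgG 1 and without either CPEB4 precipitate.

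Autism risk genes, a class in which targets of CPEB4 have been described in the brain, had no call among 54 tested in the main comparison. Their median was 0.44 and their median span 122 kb, and the median was -0.03 after removal of the span trend. Auts2 had 426.5 and 483 CPM in IgG and 1298 and 1028 CPM in the CPEB4 precipitates (1.36, adjusted p = 0.073), and Cacna1d, a calcium channel gene, 8.23 and 10.4 CPM against 31.1 and 21.3 CPM (1.47, adjusted p = 0.053). Of the genes of the unfolded protein response, another process tied to CPEB4, 0 of 19 passed and the median was 0.03. Hspa5, the main chaperone of the endoplasmic reticulum, had 107 and 31.3 CPM in IgG against 15.1 and 43.6 CPM (-1.22, adjusted p = 0.22), with overlapping groups.

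Mitosis genes, which include textbook targets of the CPEB family, had 1 lower gene of 24 and a median of -0.24. Cdc20, an activator of the anaphase-promoting complex, had 45.7 and 37.2 CPM in IgG and 14.4 and 15.8 CPM in the CPEB4 precipitates (-1.45, adjusted p = 0.0432). Ccnb1, which encodes cyclin B, had 73.1 and 56.8 CPM against 35.6 and 36.9 CPM (-0.84, adjusted p = 0.11). Both were lower in each CPEB4 library than in each IgG library, as were 27.9% of all genes tested. Cdc20 lost its call without IgG 1 and without either CPEB4 precipitate.

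Among 20 immediate early genes Fosb alone passed, and the median was 0.50, or -0.02 without IgG 2. Egr2 had 1.37 and 1.23 CPM against 7.81 and 4.39 CPM (2.23, adjusted p = 0.063), and Fos 19.2 and 20.3 CPM against 41.5 and 41.6 CPM (1.07, adjusted p = 0.065). Of 22 cholesterol synthesis genes 2 were lower, Fdps and Mvd, by -1.77 and -1.55. Among 18 glycolysis genes Aldoc was lower (-1.59), and it also stands on the astrocyte marker list, where it was 1 of 8 tested. Of 300 Zfp zinc finger genes Zfp972 was higher (1.52) and Zfp791 lower (-2.90). Fdps, Mvd, Aldoc and Zfp791 lost their calls without either CPEB4 precipitate, and Zfp972 without any 1 of the 4 libraries.

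No gene passed among 54 translation initiation factors (median -0.59), 42 genes of hnRNP, Elavl and Musashi RNA-binding proteins (-0.15), 26 matrix and adhesion genes (-0.13) or 15 long noncoding RNAs (0.29). None passed among the tested neural stem cell, neuron, oligodendrocyte, microglia and endothelial markers either. Nes, the intermediate filament nestin of neural stem cells, had 790 and 953 CPM in IgG and 318.5 and 373 CPM in the CPEB4 precipitates (-1.33, adjusted p = 0.067). Summed marker levels of the wildtype precipitates were 4122 and 3756 CPM in IgG and 3862 and 3566 CPM in CPEB4 for neural stem cells. For neurons they were 1167 and 1730 CPM in IgG and 2550 and 1681 CPM in CPEB4, so the groups overlapped.

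The wildtype precipitate was also set against the precipitate labelled CPEB4-/-. If that label holds, it is a control for what the antibody binds without CPEB4, but the counts do not check the label. Of 15208 genes, 0% passed in either direction by edgeR, with 26 higher and 15 lower at an unadjusted p under 0.05 and 0 higher and 1 lower by DESeq2. The dispersion of this fit was 0.185, against 0.0618 for the comparison with IgG, and the libraries labelled CPEB4-/- stood on either side of the wildtype ones for many genes. For the genes that rose over IgG, the wildtype to CPEB4-/- log2 difference was 1.86 for Fosb, 1.39 for Eda, 0.73 for Nkain3, 0.33 for Esrrg and -0.08 for Sgcd, all with an adjusted p of 1. Without replicate 1 labelled CPEB4-/- 169 genes were higher and 523 lower in wildtype, and without replicate 2 there were 143 and 150. Both comparisons share the wildtype CPEB4 libraries, so their values are not independent.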

How the data were processed

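The authors deposited whole-number counts per gene for 8 RIP libraries and 27144 genes. The submitters' processing notes name Bowtie2, SAMtools, Cell Ranger and the mm10 build. Versions, settings, strand use and annotation: not given in the sources used here. Per the labels' protocols libraries came from poly(A) RNA with oligo(dT) capture, but that text covers the whole series. Column names gave the genotype, fraction and replicate of each library.

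The 17 genes set aside were removed before library sizes and TMM factors were computed. Low genes were removed by filterByExpr with a minimum of 10 counts. The quasi-likelihood test of edgeR 4.0.16 (R 4.3.3) was run on the 4 libraries with no covariate, p-values were adjusted over all genes tested by Benjamini-Hochberg, and the method was tested on simulated data. CPM are counts scaled to a total of 1000000 over tested genes and divided by the TMM factor. IDs were named through a gene table (98.2% matched), and spans came from RefSeq annotation of GRCm38.p6 (93.8% of tested genes). The span is not transcript length.

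The members and the 27 lists were chosen with earlier results of these data known. Named are Cpeb4, the 15 largest changes each way among called genes that had no overlap and a mean of at least 50 counts in their higher group (passing over predicted genes and pseudogenes), the 10 higher called genes of highest CPM, and from each list the 2 with the smallest p. A gene that this rule selects is not reported here. Further list members given with values (Fos, Ccnb1, Egfr, Hspa5 and others) were chosen after their values were seen. DESeq2 1.42.0 and the other alternatives are in the closing section.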

Additional observations from a re-analysis of the deposited data

How the results depend on the processing

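Among the 53 named genes that passed, the direction was the same in every alternative that fitted them; the cause of each change was not tested. The higher and lower counts of 98 and 236 became 369 and 509 with DESeq2, 599 and 975 with no filter on low counts, 157 and 377 with no gene set aside, and 139 and 106 with library totals. They were 0 and 0 with all 8 libraries in 1 fit (488 and 797 at an unadjusted p under 0.05) and 0 and 1 against a change of 1.5-fold. Leaving out 1 library gave 6 to 222 higher and 7 to 853 lower genes, and 9 of the 53 passed in all 4 such fits and 9 in none. Further alternatives were added after the data were seen: setting aside genes from 0.1% (103 and 314), removing the trend over gene span (8 and 17) and a crossed pairing. The labels number the replicates, but nothing says that equal numbers mark a shared culture, and deviations of equal numbers correlated at -0.48. The replicate block gave 127 higher and 288 lower genes, and 44 of the 53 named genes passed. Crossed pairing gave 1747 and 1804. For the wildtype precipitate against that labelled CPEB4-/-, the counts of 0 and 0 became 17 and 10 with no filter and 0 and 1 with DESeq2, ranged from 0 to 169 and 0 to 523 with 1 library left out, and stayed 0 and 0 with the replicate block. With 2477448 counts outside the genes set aside in IgG 1, genes of a few CPM rest on under 10 counts there.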

Other observations

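The genes below were chosen after their values were seen, and their counts are raw. Galnt14, an enzyme that starts mucin-type glycosylation, had 0 and 0 counts in IgG, against 19 and 30 with the CPEB4 antibody in wildtype. Dnah5, a heavy chain of ciliary dynein, had 0 and 0 against 17 and 17, and Ebf3, a transcription factor, 1 and 1 against 26 and 24. All 3 met the filter on low counts only through the CPEB4 libraries and were picked for these values, so their edgeR calls as higher add no support. IgG also had fewer counts outside the genes set aside, 2477448 and 3291382 against 6814303 and 5876927. The libraries labelled CPEB4-/- held 19 and 1, 46 and 5, and 22 and 2 counts.

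A set of predicted genes passed as higher with very unequal replicates. Gm10800 had 9 and 0 counts in IgG, against 196 and 2090 with the CPEB4 antibody in wildtype and 624 and 3 in the precipitates labelled CPEB4-/-. Gm26870 had 36 and 5, 349 and 4509, and 1066 and 7, and Gm21738 had 2 and 1, 73 and 1090, and 288 and 5. In all 3 the second wildtype precipitate was the highest library. Whether these genes share reads with repeated sequence was not tested.

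Irx1, a homeobox transcription factor, had 7 and 38 counts in IgG, against 3 and 1 with the CPEB4 antibody in wildtype, 40 and 7 in the precipitates labelled CPEB4-/- and 19 and 55 in the inputs. Igf2bp2, an RNA-binding protein, had 8.23 and 45.1 CPM in IgG, 8.77 and 6.67 CPM in the wildtype precipitates and 51.4 and 8.76 CPM in those labelled CPEB4-/-. Irx1 passed as lower and Igf2bp2 did not (adjusted p = 0.10). In both genes IgG 2 and replicate 1 labelled CPEB4-/- were the highest precipitates, as for Peg10 among the named genes.

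Copies of the U5 spliceosomal RNA, which share reads with each other, passed as higher once the trend over gene span was removed. Rnu5g had 561 and 608 counts in IgG, against 1741 and 2354 with the CPEB4 antibody in wildtype, and 10290 and 501 in the precipitates labelled CPEB4-/-. Its log2 fold change was 0.49 before removal and 1.84 after (adjusted p = 0.022).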
